A study of Mus musculus with 12 samples.

Results

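The 6 immune and inflammation miRNAs described here are mmu-mir-142a, mmu-mir-146a, mmu-mir-146b, mmu-mir-150, mmu-mir-155 and mmu-mir-223, taken by hairpin name from the small RNA annotation of every library. They have known roles in blood and immune cells, and were chosen with earlier results of these data known. All 6 were found among the 1050 miRNA hairpins with reads in at least 1 of the 12 libraries. The study asked how a high-fat diet changes the small RNAs of mouse sperm and how AMP-activated protein kinase and the ribonuclease angiogenin (Ang) act on small RNAs in a Sertoli cell line.

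Sperm came from C57BL6/J male mice that were given a control diet (CD, 16% of energy from fat) or a high-fat diet (HFD), by the labels from 4 weeks of age for 7 weeks, while a figure caption of the study gives a later start. The labels put the fat share of the HFD at 69% of energy, above the share in the study's methods. There were 3 CD and 3 HFD libraries, each made from mature epididymal sperm of 3 pooled mice. TM4 cells, a mouse Sertoli cell line, gave 2 libraries of control cells (Ctrl), 2 of cells given Compound C (CC), an AMPK inhibitor, at 10 µM for 12 h, and 2 of cells that overexpressed Ang from a plasmid (Ang OE). Nothing in the labels says that the TM4 replicates were separate cultures, so p-values for these cells measure the spread between libraries, which may be technical. For Ctrl, neither a vehicle nor an empty plasmid is given in the sources used here, and CC and Ang OE were compared with the same 2 Ctrl libraries.

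Values are estimated read counts per hairpin, given as counts per 1000000 miRNA reads of the library (CPM). miRNA reads numbered 11412945 to 14822686 per sperm library and 27651384 to 35704399 per TM4 library. In no replicate pair did the counts agree within sampling noise (chi-square per degree of freedom 226 to 1461), and the library Sperm HFD 1 stood apart from HFD 2 and HFD 3, with 1138 and 1461 against 285 between the other two. The members' fold changes between the diets are therefore given with and without it. mmu-mir-202, a marker of gonadal somatic cells such as Sertoli cells, reached at most 0.178 CPM in TM4 cells, and 5 epithelial hairpins of the mir-200 and mir-141 family summed to 1.28 to 2.38 CPM in TM4 cells against 8946 to 14327 CPM in sperm. Hairpins of red blood cells summed to 25239 to 50595 CPM in the sperm libraries, and all 4 of them were read in every sperm library.

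A miRNA guides the Argonaute protein to messenger RNAs that pair with its seed, bases 2 to 8 of the mature strand, and lowers their translation and stability. mir-142a is made in nearly all blood cells, mir-223 mainly in neutrophils and monocytes, and mir-150 in mature B and T lymphocytes. mir-155 is induced by Toll-like receptor and cytokine signals in macrophages and lymphocytes, while mir-146a and mir-146b are induced through NF-κB or related signals and damp that response by targeting Traf6 and Irak1.

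The mature strands of 5 hairpins are shown because the seed sets them apart or joins them. They were taken from RefSeq (GRCm38.p6). Capitals mark the seed. The deposited counts are per hairpin, so the arms of a hairpin were not separated.
mmu-miR-142a-3p: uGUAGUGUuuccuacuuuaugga
mmu-miR-142a-5p: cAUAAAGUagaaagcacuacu
mmu-miR-223-3p: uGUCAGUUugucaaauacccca
mmu-miR-155-5p: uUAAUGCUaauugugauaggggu
mmu-miR-146a-5p: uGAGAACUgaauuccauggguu
mmu-miR-146b-5p: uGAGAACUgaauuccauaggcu

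The mir-146 strands share their seed and their first 17 bases. Counted from the 5′ end of mmu-miR-146a-5p, they differ by G18A and U21C. A read that ends before position 18 cannot be told apart between the 2 hairpins. As the annotation allowed a mismatch, longer reads may match both too. Both hairpins had counts that were not whole in 7 of 12 libraries, whereas the other 4 hairpins had whole counts in all 12 (within 0.01 reads). Some reads were thus divided between the 2 hairpins. Individual levels of mir-146a and mir-146b are uncertain to an extent that was not measured. For mmu-mir-150, whose usual strand is mmu-miR-150-5p, the same annotation gives mmu-miR-150-3p on chromosome 7.

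The hairpins lie apart in the genome. In GRCm38.p6 mmu-mir-142a is at chr11:87756864-87756927 on the plus strand and mmu-mir-146a at chr11:43374397-43374461 on the minus strand. mmu-mir-146b is at chr19:46342762-46342870, mmu-mir-155 at chr16:84714140-84714204 and mmu-mir-223 at chrX:96242817-96242926, all on the plus strand. By gene name in the GENCODE M39 annotation, mir-142a, mir-155 and mir-223 lie in exons of their host long non-coding RNAs Mir142hg, Mir155hg and Mir223hg, mir-146a in an exon of the long non-coding RNA Gm73818, mir-150 in an intron of the long non-coding RNA Gm45552, and mir-146b in an intron of the protein-coding gene Mfsd13a. mmu-mir-142b, annotated on the strand opposite mir-142a, had no reads in any of the 12 libraries, which allows up to 0.263 CPM in the library where that limit is highest.

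The reads of the group were divided differently among its members in sperm and in TM4 cells. Together the 6 hairpins made up 0.660 to 0.912% of the miRNA reads in CD sperm, 0.804 to 0.850% in HFD sperm, 0.255 to 0.263% in Ctrl, 0.233 to 0.244% in CC and 0.253 to 0.263% in Ang OE. In sperm mir-146b alone took 73.0 to 85.9% of these reads and mir-142a 5.31 to 14.6%. In TM4 cells mir-155 took 47.6 to 60.8% and mir-146b 37.0 to 50.7%, so that these 2 hairpins held nearly all reads of the group.

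**Figure D1:**
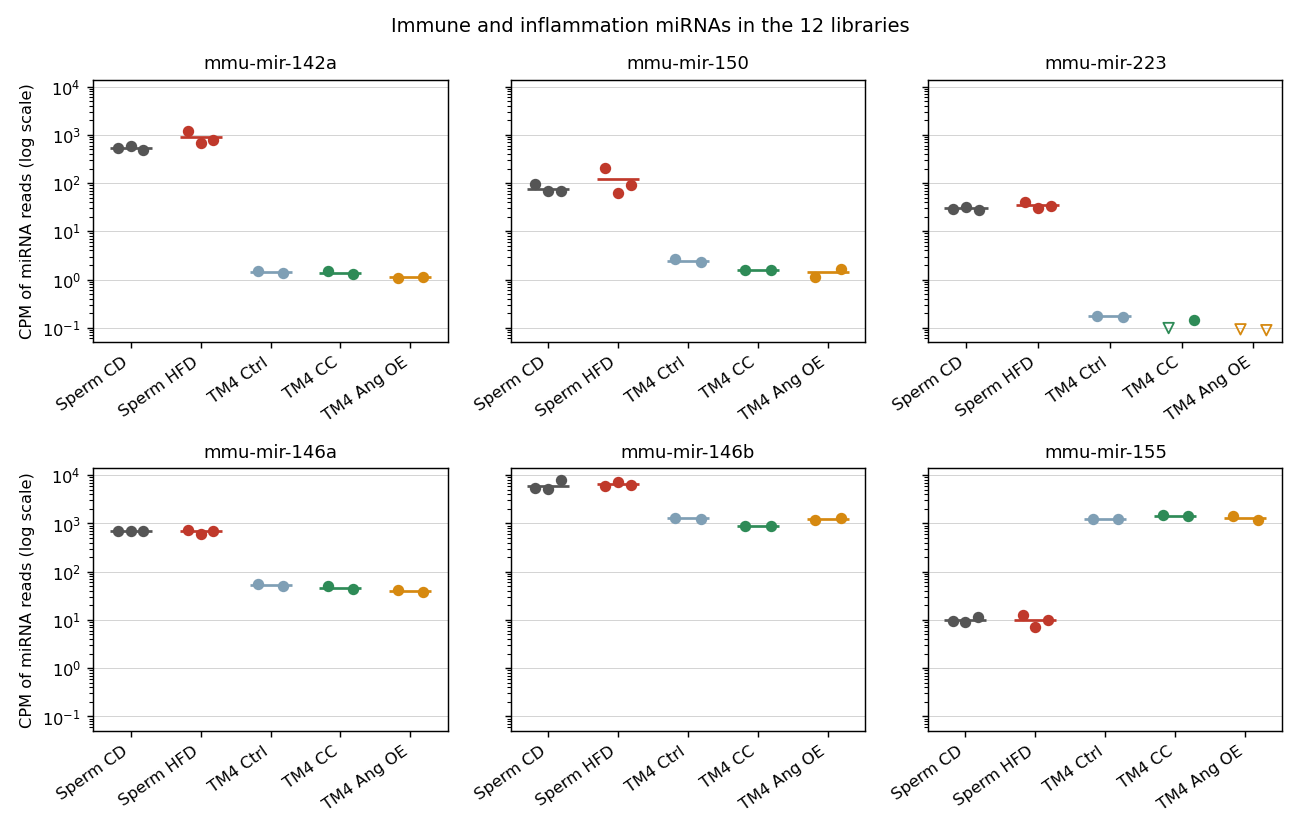
CPM of miRNA reads (log scale) of the 6 hairpins in the 12 libraries, with points for libraries and lines for group means; open triangles are libraries with no reads, drawn at the level that 3 reads would give. mir-155 is the hairpin that lies higher in TM4 cells, at 1207 to 1486 CPM against 7.11 to 13.0 CPM in sperm.

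**Figure D2:**
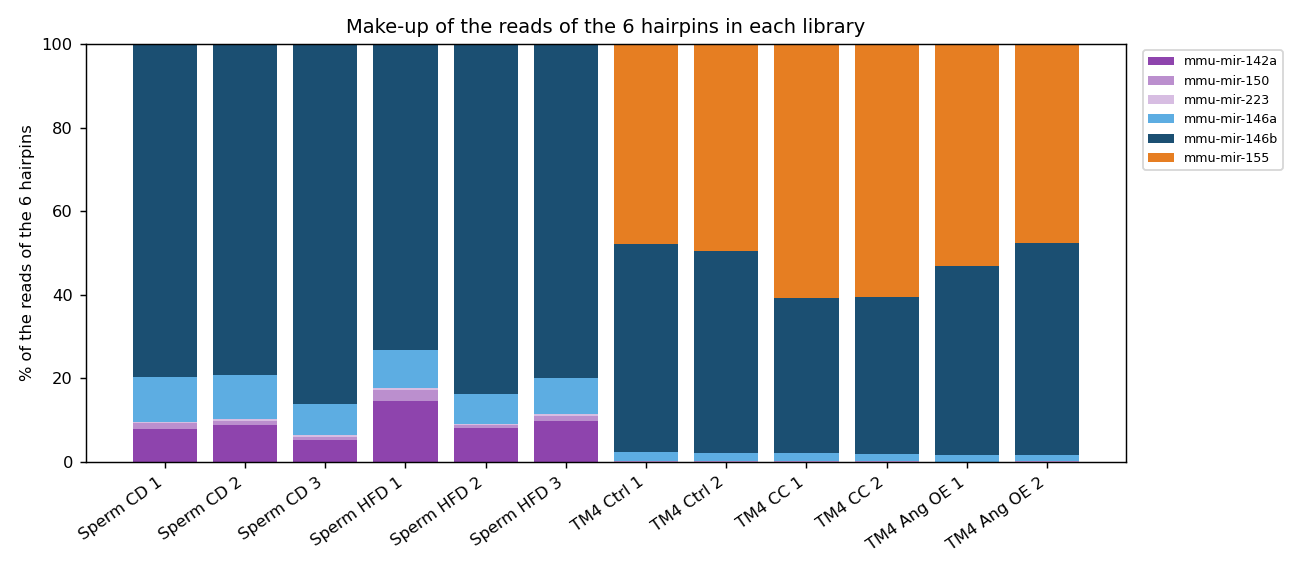
Share (%) of the reads of the 6 hairpins that each hairpin took, by library. mir-146b takes 73.0 to 85.9% in the sperm libraries, and mir-155 takes 47.6 to 60.8% in the TM4 libraries.

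mir-142a, the general blood cell miRNA, was read at 521, 575 and 484 CPM in the CD libraries. In TM4 cells, where it ranked 353 to 365 among all hairpins, it was far lower, with 1.49 and 1.34 CPM in Ctrl, 1.48 and 1.30 in CC and 1.08 and 1.13 in Ang OE, from 35 to 48 reads per library. The 95% exact binomial (Clopper-Pearson) intervals of the TM4 libraries, which cover counting error only, all overlap (0.754 to 2.02 CPM at the widest).

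mir-223, the myeloid member, was lower throughout. It was read at 29.3, 32.6 and 28.2 CPM in CD sperm. In TM4 cells there were 5 and 6 reads in Ctrl (0.178 and 0.168 CPM), 0 and 4 reads in CC and 0 reads in both Ang OE libraries. A count of 0 allows up to 0.0985 CPM in CC 1, 0.0928 in Ang OE 1 and 0.0890 in Ang OE 2, so differences among the TM4 groups were not detectable at this depth and mir-223 did not pass the filter there.

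mir-150, the lymphocyte member, stood between them in sperm. It was read at 93.5, 68.1 and 67.9 CPM in CD sperm and at 1.14 to 2.63 CPM in TM4 cells. The ratio of mir-142a to mir-150 was 5.58 to 8.45 in CD sperm and 0.568 to 0.585 in Ctrl cells.

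The mir-146 hairpins were read in all libraries, mir-146b always above mir-146a. mir-146a was read at 713, 702 and 694 CPM in CD sperm and at 55.7 and 50.4 CPM in Ctrl cells. mir-146b was read at 5321, 5217 and 7839 CPM in CD sperm, where it ranked 13 to 24 among all hairpins, and at 1310 and 1230 CPM in Ctrl cells. mir-146b exceeded mir-146a by 7.43 to 11.7 times in the sperm libraries and by 17.8 to 33.8 times in the TM4 libraries, with no overlap between the sources.

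mir-155, the inducible member, ran the other way. It was read at 9.30, 8.94 and 11.5 CPM in CD sperm, from 102 to 153 reads, and at 1263 and 1267 CPM in Ctrl cells, where it ranked 67 in both libraries. The mean in Ctrl was 128 times that in CD sperm.

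CD sperm was set against Ctrl TM4 cells to describe in which source each hairpin is higher. Source, RNA input and preparation cannot be told apart here. All 6 hairpins differed in edgeR's quasi-likelihood test at an adjusted p under 0.05, when 77.1% of the 590 hairpins tested did. With trimmed-mean (TMM) scaling the log2 fold change in sperm was 9.87 ± 0.23 (SE) for mir-142a, 8.72 ± 0.30 for mir-223, 6.31 ± 0.33 for mir-150, 5.07 ± 0.19 for mir-146a and 3.62 ± 0.26 for mir-146b. For mir-155 it was -5.65 ± 0.20. The largest of the 6 adjusted p-values was 2.13e-06. The median of all hairpins was -0.13 with TMM and -1.47 with all miRNA reads as library size, so each value is lower by about that shift with the latter, at 8.53 for mir-142a, 2.27 for mir-146b and -6.99 for mir-155. All 6 directions and calls held in the 12 settings run. In these libraries, therefore, 5 of 6 members were higher in sperm, where 40.7% of all tested hairpins were called higher and 36.4% lower. That balance turned with the scaling: 240 hairpins were called higher and 215 lower with TMM, 194 and 342 with all miRNA reads as library size.

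Of a wider list of 23 other hairpins with known roles in immune cells, 7 were called higher in CD sperm and 15 lower. Among the called, mir-125a and mir-326 pointed higher in the test and lower by mean CPM. mir-181c averaged 1913 CPM in CD sperm and 46.0 CPM in Ctrl (log2 fold change 6.71), and mir-181d 151 and 22.2 CPM (4.13). mir-31 was lower in sperm, at 44.8 against 5175 CPM (-5.54). mir-511, carried by a macrophage receptor gene, was read at 10.9 CPM in CD sperm and not in Ctrl. Epithelial hairpins (5 of 5 called higher), red blood cell hairpins (4 of 4) and the endothelial mir-126a (1 of 1) also lay higher in sperm. So did male germ cell hairpins (8 of 9) and the gonadal mir-202 (1 of 1), beside 40.7% of all hairpins. The part of other cells in the sperm values was not tested.

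The diets were compared to ask whether HFD changed these miRNAs in sperm. No hairpin was called among the 451 tested (0%), and none of the 6 members. At an unadjusted p under 0.05, 31 hairpins (6.87%) stood out, of which mir-142a was the member. That count rested on single libraries, at 80 without HFD 1, 15 without CD 2 and 19 without HFD 3, and no hairpin was called in any of these cases. DESeq2 called 1 hairpin higher and 7 lower, none of them a member.

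mir-142a was higher in each HFD library than in any CD library. It was read at 1179, 688 and 792 CPM in HFD sperm against 484 to 575 CPM in CD sperm, so the groups did not overlap; this was true of 6.21% of all tested hairpins, and 3.99% lay higher without overlap. Mean levels were 886 ± 259 (SD, n = 3) and 527 ± 45.7 CPM (SD, n = 3), a ratio of 1.68. The log2 fold change was 0.63 ± 0.21 (SE) with a 95% interval of 0.17 to 1.1 and an adjusted p of 0.401 by edgeR (0.128 by DESeq2), so the difference did not pass the test once adjusted over the 451 hairpins. Without HFD 1 it was 0.48 ± 0.14 (adjusted p = 0.193 by edgeR).

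The ratio of mir-142a to mir-223, both read in myeloid blood cells, was 17.2 to 17.8 in CD sperm and 23.2 to 29.1 in HFD sperm. That of mir-142a to mir-150 overlapped, at 5.58 to 8.45 in CD sperm and 5.83 to 11.1 in HFD sperm. How many other ratios separate the diets was not counted, and the ratios were not tested. mir-223 itself was read at 40.6, 29.7 and 34.1 CPM in HFD sperm, a range that overlaps the CD libraries. Its log2 fold change was 0.10 ± 0.19 (SE; adjusted p = 0.989 by edgeR), with an interval of -0.33 to 0.53, and 0.074 without HFD 1.

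mir-150 rested on a lone library. It was read at 202 CPM in HFD 1 and at 62.1 and 91.3 CPM in HFD 2 and 3, which lie within or below the CD range. The log2 fold change was 0.49 ± 0.39 (SE; adjusted p = 0.989 by edgeR) with HFD 1 and -0.04 ± 0.27 without it.

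The remaining members did not separate the diets. mir-146a was read at 746, 609 and 705 CPM in HFD sperm (log2 fold change -0.15, interval -0.52 to 0.22) and mir-146b at 5893, 7107 and 6404 CPM (-0.04, interval -0.56 to 0.49). mir-155 was read at 13.0, 7.11 and 10.1 CPM (-0.11, interval -0.71 to 0.49). All 3 had an adjusted p of 0.989 by edgeR, and the lowest limit of these intervals was -0.71 and the highest 0.49. Without HFD 1 the log2 fold changes were -0.12 for mir-146a, 0.12 for mir-146b and -0.23 for mir-155. The signs of all 3 turned with the scaling of the libraries, that of mir-146a with the clean reads other than rRNA alone.

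HFD 1 was also the library with the highest red blood cell hairpins, at 50595 CPM against 26237 to 34490 CPM in CD, 36163 CPM in HFD 2 and 25239 CPM in HFD 3. HFD 3, with mir-142a at 792 CPM, had a sum below the lowest CD library. This sum is carried by mir-486a and mir-486b, at 11543 CPM or more in every sperm library. mir-451a and mir-144, which define red blood cells, ran from 1852 to 2420 and from 150 to 267 CPM in HFD against 1155 to 1934 and 101 to 183 CPM in CD, so that their lowest HFD values lay above the lowest CD values and the groups overlapped. Epithelial hairpins ran from 8946 CPM in HFD 1 to 14327 CPM in HFD 3, and mir-126a from 847 to 1223 CPM in HFD against 686 to 896 CPM in CD. Male germ cell hairpins summed to 5068, 3465 and 3714 CPM in HFD 1 to 3 and to 3509, 10320 and 5472 CPM in CD 1 to 3. CD 2 thus carried the high CD mean. None of the 9 tested was called. All 9 had a fold change below 0, with a median of -0.77 on the log2 scale against -0.01 for all hairpins, and 2 had an unadjusted p under 0.05. mir-202 averaged 7.98 CPM in HFD and 28.8 CPM in CD (-1.87 on the log2 scale) and was not called either. It was read at 6.94, 59.8 and 19.6 CPM in CD 1 to 3 and at 11.3, 7.75 and 4.86 CPM in HFD 1 to 3. CD 2 was thus again the highest library, and CD 1 lay below HFD 1 and HFD 2. Fewer cells of a type and less RNA per cell cannot be told apart in these bulk libraries, and the part of these cell types in the mir-142a values was not tested. The wider list showed 0 calls among 22 tested, with a median log2 fold change of -0.12 against -0.01 for all hairpins.

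**Figure D3:**
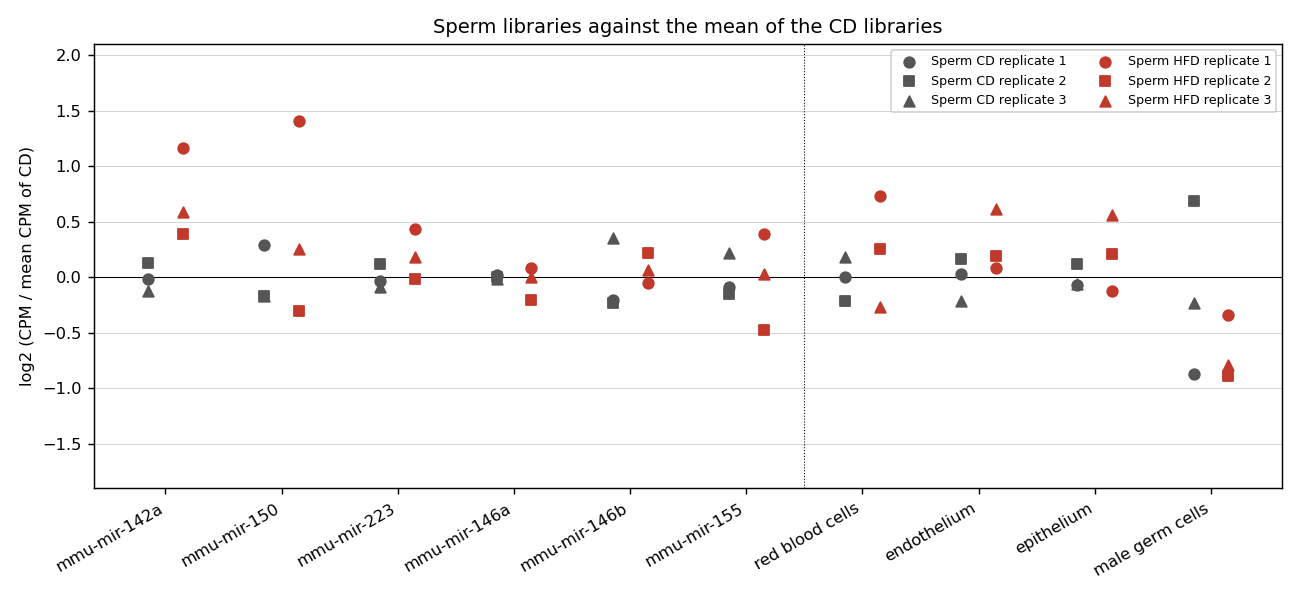
log2 ratio of CPM in each sperm library to the mean of the CD libraries, for the 6 hairpins (left) and for the summed hairpins of other cell types (right of the dotted line); symbols mark the replicate number. mir-142a is the hairpin whose 3 HFD libraries all lie above the 3 CD libraries, from 688 to 1179 CPM against 484 to 575, and HFD 1 is the highest library for every member except mir-146b and for the summed red blood cell hairpins.

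In TM4 cells CC was compared with Ctrl to ask what AMPK inhibition does. 1 of the 5 members tested was called: mir-146b fell. It was read at 1310 and 1230 CPM in Ctrl and at 905 and 873 CPM in CC, a drop to 0.700 of the Ctrl mean, and the groups did not overlap. The log2 fold change was -0.51 ± 0.10 (SE) with an adjusted p of 0.0069 by edgeR. Over all 533 hairpins tested 4.13% were called and 1.88% were called lower, and 47.1% had no overlap between the 2 CC and the 2 Ctrl libraries. The direction held in all 15 settings. Without CC 1 the log2 fold change was -0.57 (adjusted p = 0.058 by edgeR) and without CC 2 -0.47 (adjusted p = 0.12 by edgeR), so the call was lost although the size was kept. In both cases no hairpin at all was called, 76 and 68 had an unadjusted p under 0.05, and the lone CC library was assumed to vary like the libraries of the other groups.

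mir-146a, with the same seed, was read at 50.8 and 43.4 CPM in CC against 55.7 and 50.4 CPM in Ctrl. Its log2 fold change was -0.16 ± 0.13 (SE; adjusted p = 0.601 by edgeR), and the groups overlapped. The difference between the changes of the 2 hairpins was not tested. The ratio of mir-146b to mir-146a was 23.5 and 24.4 in Ctrl and 17.8 and 20.1 in CC.

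mir-155 was read at 1486 and 1413 CPM in CC and 1263 and 1267 CPM in Ctrl, higher without overlap, as 23.1% of all hairpins were. The log2 fold change of 0.20 ± 0.10 (SE; adjusted p = 0.294 by edgeR) did not pass the test. The ratio of mir-146b to mir-155 was 1.04 and 0.971 in Ctrl and 0.609 and 0.618 in CC. mir-150 was read at 1.61 and 1.56 CPM in CC and 2.63 and 2.30 CPM in Ctrl, from 43 to 82 reads, with a log2 fold change of -0.63 ± 0.27 (SE; adjusted p = 0.228 by edgeR). mir-142a did not move beyond its error (-0.02, interval -0.68 to 0.64).

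Of the wider list, 1 of 22 hairpins tested was called, near the 4.13% called over all hairpins. mir-132, induced by inflammatory signals and by CREB, rose to 42.1 CPM from 26.8 CPM (log2 fold change 0.65, adjusted p = 0.019 by edgeR). Of the red blood cell hairpins, mir-486a and mir-486b fell by 0.54 each on the log2 scale (adjusted p = 0.0039 by edgeR) and the list summed to 1879 to 1956 CPM in CC against 2737 to 2857 CPM in Ctrl, while mir-451a and mir-144 averaged at most 0.621 CPM in either group.

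Ang OE was compared with Ctrl to ask what excess Ang does. The answer for this group depended on the scaling. By mean CPM mir-155 was read at 1397 and 1207 CPM in Ang OE against 1263 and 1267 CPM in Ctrl, so the groups overlapped. In the TMM-scaled test it was called higher, with a log2 fold change of 0.32 ± 0.10 (SE; adjusted p = 0.0196 by edgeR), when 38.3% of 533 hairpins were called, 24.2% higher and 14.1% lower. With all miRNA reads as library size its log2 fold change was 0.04 (adjusted p = 0.792 by edgeR). The call held in 8 of 16 settings and was lost without Ctrl 1, without Ctrl 2 and without Ang OE 1 (0.29, 0.35 and 0.16 on the log2 scale).

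The scaling shifted all hairpins. The median log2 fold change over all of them was 0.06 with TMM and -0.21 with all miRNA reads, and the share of calls that were higher was 63.2% and 36.8%. mir-21a, the most abundant hairpin of the wider list, rose from 62880 to 110835 CPM, which is 1.76 times the Ctrl mean; its part in the shift was not tested.

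mir-146b was read at 1187 and 1286 CPM in Ang OE, within or below the Ctrl values. Its log2 fold change was 0.24 ± 0.10 (SE; adjusted p = 0.0736 by edgeR) with TMM and -0.04 with all miRNA reads. After ComBat-seq with the replicate number as batch it was called higher, at 0.22 (adjusted p = 0.0422 by edgeR). mir-146a was read at 41.5 and 38.1 CPM, below both Ctrl libraries, and mir-150 at 1.14 and 1.69 CPM, also below them; 70.4% of all hairpins had no overlap, and 45.2% lay lower without it. In the TMM-scaled test neither passed, at -0.14 (adjusted p = 0.428 by edgeR) and -0.51 (adjusted p = 0.147 by edgeR), whereas with all miRNA reads as library size both were called lower, at -0.41 (adjusted p = 0.020 by edgeR) and -0.79 (adjusted p = 0.0256 by edgeR). mir-142a lay at 1.08 and 1.13 CPM (-0.08, interval -0.75 to 0.59). The ratio of mir-146b to mir-146a, which no scaling changes, was 28.6 and 33.8 in Ang OE against 23.5 and 24.4 in Ctrl, without overlap. This difference was not tested, and how many other ratios lie without overlap was not counted. Both counts also hold reads that were divided between the 2 hairpins.

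Of the wider list, 3 of 22 were called higher and 10 lower with TMM, beside 24.2% and 14.1% of all hairpins. By mean CPM, 2 of the 22 were higher and 20 lower, and the balance over all hairpins turned in the same direction with all miRNA reads as library size (81 called higher and 139 lower). mir-21a rose by 1.09 and mir-147, at 5.34 against 3.54 CPM, by 0.87 on the log2 scale. mir-125b-2 fell by 0.94 and mir-132 by 0.73, the latter from 26.8 to 13.5 CPM. These 4 directions were the same by mean CPM, and of the 13 called mir-24-2 turned, with a log2 fold change of 0.26 in the test and a mean of 1623 CPM against 1638 CPM. Male germ cell hairpins were called higher for 4 of 6 tested, beside 24.2% of all hairpins, and summed to 1964 to 2067 CPM against 1047 to 1090 CPM. This sum is carried by mir-34c, with means of 1895 and 960 CPM. The call of mir-871 rests on 13 to 20 reads per library against 5 to 7. In Ang OE mir-741 and mir-470 averaged 0.0741 and 0.200 CPM, and mir-880 and mir-743a had 0 reads. The endothelial mir-126a averaged 206 against 105 CPM.

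Ang OE and CC were also compared with each other, a comparison added after the data had been seen. mir-146b was higher in Ang OE, by 0.75 ± 0.10 on the log2 scale (SE; adjusted p = 1.72e-05 by edgeR), at 1187 and 1286 CPM against 905 and 873 CPM. In this comparison 41.5% of 533 hairpins were called and 26.3% were called higher. With TMM 140 were called higher and 81 lower, whereas with all miRNA reads as library size 83 were called higher and 143 lower. The call held in all 15 settings, with all miRNA reads as library size at 0.48. None of the other 4 members tested passed.

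**Figure D4:**
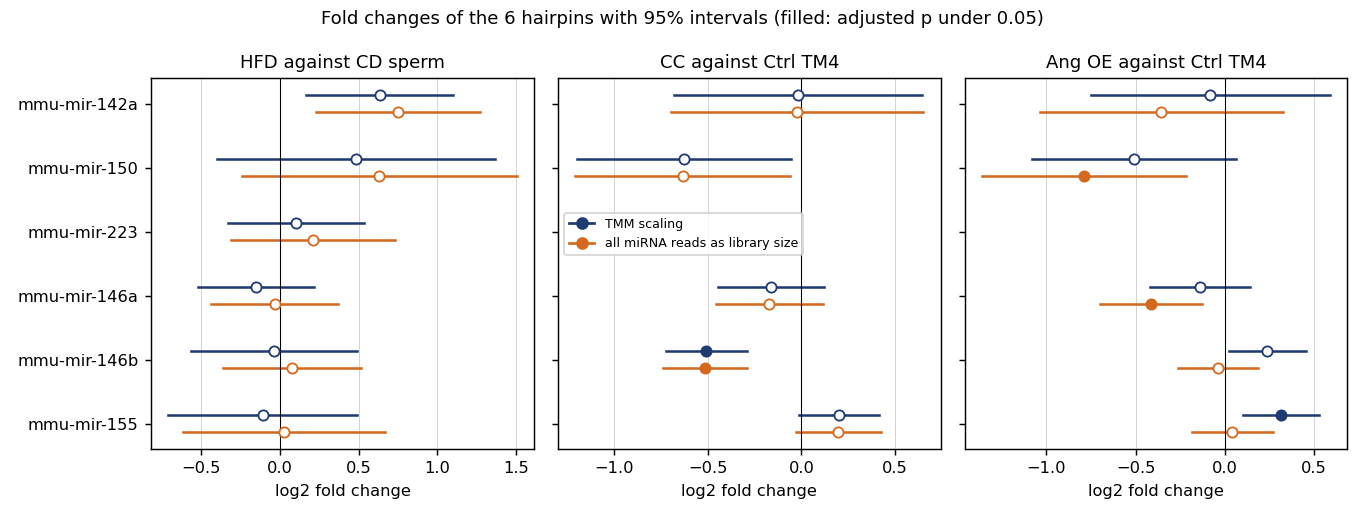
log2 fold changes of the 6 hairpins with 95% intervals in 3 comparisons, with TMM scaling (blue) and with all miRNA reads as library size (orange). Filled points have an adjusted p under 0.05, and mir-223 did not pass the filter in TM4 cells. mir-146b is filled at -0.51 for CC under both scalings, whereas for Ang OE mir-155 is filled under TMM and mir-146a and mir-150 under all miRNA reads.

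The hairpins most like each member from library to library were ranked by correlation. Among 256 hairpins with a mean of at least 100 reads in sperm, the highest Pearson correlation of log2 CPM with mir-142a over the 6 sperm libraries was that of mir-335 (r = 0.98), then mir-744 (0.97) and mir-148b (0.94). Without HFD 1 and CD 3, the 2 libraries farthest from the median, these were 0.996, 0.979 and 0.991. For mir-223 they were mir-28a (0.97), let-7d (0.95) and mir-151 (0.95), at 0.80 to 0.86 without HFD 1 and CD 3, and for mir-150 mir-337, mir-423 and mir-674 (0.90 to 0.92), which came to 0.98, 0.066 and 0.467 in that order without HFD 1 and HFD 2. mir-146a was most like mir-615 (0.98), which dropped to 0.43 without HFD 2 and HFD 1, and mir-155 most like mir-10a (0.87), which dropped to 0.20 without the same 2 libraries. mir-146b was most like mir-144 (0.69), mir-182 (0.68) and mir-9-3 (0.65), which came to 0.967, 0.925 and 0.881 without CD 3 and CD 2.

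In TM4 cells, among 306 such hairpins, mir-146a was most like mir-342 (0.98), mir-30c-1 (0.98) and mir-30c-2 (0.97), at 0.94 to 0.98 without Ang OE 2 and Ctrl 1. mir-146b was most like mir-3092 (0.95), mir-541 and mir-185 (both 0.88), which came to 0.941, 0.535 and 0.639 without CC 2 and CC 1. mir-155 was most like mir-22 (0.87), mir-574 (0.85) and mir-145a (0.85), at 0.73 to 0.82 without CC 1 and Ang OE 2. These are descriptions over 6 libraries of each source, which share depth, composition and treatment groups.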

How the data were processed

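Small RNAs were sequenced from 6 sperm and 6 TM4 libraries. Per the methods, the authors kept reads of 15 to 45 nt and annotated them with SPORTS1.1, allowing a mismatch; the submitters' processing notes name FastQC 0.12.0, Trimmomatic 0.40 and the build mm10. The deposited values are estimated counts per hairpin, a read of several hairpins being divided among them, with no scaling for depth. Reads with and without a genome match were added (the 6 hairpins had none without), and absent hairpins were set to 0. Members and lists were chosen with earlier results of these data known.

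Counts were rounded and tested with edgeR 4.0.16 (R 4.3.3) by the quasi-likelihood test with TMM over miRNAs and Benjamini-Hochberg adjustment over all hairpins that had 10 or more reads in 3 or more libraries (sperm) or in 2 or more (TM4, CD sperm against Ctrl). The TM4 tests used all 6 libraries. Calls were made at an adjusted p under 0.05. Besides the 6 hairpins, the text names mir-142b, at most the 4 called hairpins of the wider list with the largest change per comparison, marker hairpins, the 3 hairpins most alike, and, chosen after their values were seen, mir-24-2, mir-125a and mir-326. Hairpins were correlated as log2(CPM + 1).

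Alternatives were DESeq2 1.42.0, other library sizes, other filters, genome-matched reads, the replicate number as a block, ComBat-seq (sva 3.50.0) with the replicate number as batch, since the methods name that tool but no batches, fewer groups and each library left out. On simulated counts, 200 hairpins were shifted by 2 on the log2 scale, with a dispersion of 0.02. The diet comparison recovered 96% of them (451 hairpins tested, 9 false calls), CC 94.5% (533 tested, 3 false calls) and Ang OE 92% (533 tested, 5 false calls). Ang OE against CC recovered 94.5% (533 tested, 7 false calls) and CD sperm against Ctrl 93% (590 tested, 4 false calls). With TMM, the largest log2 fold changes of tested members were smaller than 2 in all but the last comparison. They were 0.63 for the diets (mir-142a), -0.63 for CC and -0.51 for Ang OE (both mir-150), and 0.75 for Ang OE against CC (mir-146b). The dispersion is a smaller spread than mir-142a, mir-150 and mir-155 had in HFD sperm, and mir-146b and mir-150 in CD sperm. Recovery at the members' own sizes and spreads was not tested. Exact binomial intervals at the 95% level and floors of 3 reads cover counting error only. Python 3.11.15 with pandas 2.3.3, numpy 2.4.6, scipy 1.17.1 and matplotlib 3.10.9 was used.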

Additional observations from a re-analysis of the deposited data

How the results depend on the processing

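The 6 calls of CD sperm against Ctrl kept their direction and side of the threshold under all alternatives run, while the number of all hairpins called there ran from 308 to 575 against 455. For HFD against CD, DESeq2 called 8 hairpins and edgeR none. The uncalled changes turned sign for mir-146a scaled to clean reads other than rRNA (0.047 on the log2 scale), for mir-146b with all miRNA reads (0.079), the clean reads (0.17) and the filter of 100 reads (0.020), and for mir-155 with all miRNA reads (0.024) and the clean reads (0.10). With a library left out, mir-146b ran from -0.21 to 0.27, mir-150 from -0.039 to 0.79 and mir-155 from -0.25 to 0.10.

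For CC against Ctrl, 35 hairpins were called with the replicate block, 39 with ComBat-seq and 34 with the replicate block in a model of the 2 compared groups, against 22, and 0 to 26 with a library left out; the members called were 0 to 1. mir-142a turned sign with DESeq2 (0.0088) and no filter (0.021) and ran from -0.15 to 0.078 with a library left out.

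For Ang OE against Ctrl, the members called numbered 2 with all miRNA reads, 0 with the clean reads, 0 with the filter of 100 reads, 0 with the 2 compared groups alone, 2 with ComBat-seq (mir-155 and mir-146b, both higher), 0 with the replicate block in that model, and 0 to 1 with a library left out. mir-146b turned sign with all miRNA reads (-0.039). The cause was not tested.

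Nothing in the labels says that same-numbered libraries were paired. Their deviations correlated at -0.35, -0.24 and 0.07 in sperm, -0.01 for CC and -0.11 for Ang OE, each against Ctrl, and 0.17 between Ang OE and CC. With so few libraries these values cannot settle whether same-numbered libraries shared a batch. The replicate block called 0 hairpins for the diets and 222 for Ang OE, and with crossed numbers 229 were called for Ang OE in the 2 compared groups, against 161 with the numbers as given; the crossed pairing and the blocks in 2 groups were chosen after seeing the data. The TM4 values of mir-142a, mir-150 and mir-223 rest on under 100 reads per library.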
